A study of Mus musculus and Homo sapiens with 15 samples.

Results

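The genes described here are 10 macrophage genes of the mouse, Cd68, Adgre1, Csf1r, C1qa, C1qb, C1qc, Mrc1, Cd163, Marco and Pla2g2d, followed through the thymus tumours and the grafted tumours of a study of arsenic trioxide (ATO). They were found by symbol, each as 1 gene, among 52340 genes in the thymus table and among 56691 genes in the graft table. The 10 symbols were chosen by their levels in these same libraries, so the levels are given as a description, with no test of the 10 genes themselves. The thymus samples came from W/W mice, which carry the p53 R282W mutation on both alleles and develop T-cell lymphomas, and all were taken at day 150 after birth. They form 3 groups of 3 libraries: a water group, a group on ATO with progressing tumours, and a group on ATO with regressing tumours. The grafts grew in C57 mice labelled wild type and were treated with phosphate-buffered saline (PBS, 2 libraries) or ATO (2 libraries). The labels give neither the age of these hosts nor the line that was grafted, and do not say what genotype the grafted cells had. U937, a human myeloid leukaemia line made to express p53 R282W, gave 1 library with PBS and 1 with ATO. Outcome defines the ATO groups of the thymus, so treatment and outcome cannot be told apart against water. What a replicate number stands for is not given in the labels, and p-values then measure only the spread between these samples.

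Macrophages are phagocytes that depend on the CSF1 receptor, encoded by Csf1r and bound by the ligands CSF1 and IL34. In the thymus they engulf the many thymocytes that die during selection. C1q, the recognition unit of the classical complement pathway, is built from A, B and C chains and is made largely by tissue macrophages, where it also tags dying cells. Scavenger receptors on the macrophage surface take up modified proteins, haemoglobin complexes and microbes, and their mixture differs between macrophage populations. These samples are pieces of tissue, so fewer macrophages and less RNA per macrophage cannot be told apart.

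The 3 C1q chain genes lie together on chromosome 4 of GRCm38, all on the minus strand, within 18675 bases. C1qb spans 136880129 to 136886187, C1qc 136889804 to 136893065 and C1qa 136895917 to 136898803. Pla2g2d, at 138775735 to 138782046 on the plus strand, lies 1.88 Mb further along the same chromosome. The remaining members are on other chromosomes. The motif search covered RefSeq promoter windows on GRCm38.p6 of 7 of the 10 members. It left out C1qa, Adgre1 and Csf1r, so the motif counts below say nothing about these members. C1qb and C1qc are shown as neighbouring genes that varied together. Cd163 and Marco are shown as receptors that took opposite orders between the outcomes. Only the upstream letters of these 4 are given. Each is printed 5′ to 3′ on the gene's own strand, without the parts that the annotation counts as exon: C1qb is chr4:136886201-136886450 (minus strand), C1qc is chr4:136893066-136893164 (minus), Cd163 is chr6:124304429-124304650 (plus) and Marco is chr1:120505025-120505274 (minus). Capitals mark matches, on either strand, to AGGAAG, a core bound by ETS factors such as PU.1 (read CTTCCT on the other strand), and to TGCTGA, a MAF half-site.
C1qb: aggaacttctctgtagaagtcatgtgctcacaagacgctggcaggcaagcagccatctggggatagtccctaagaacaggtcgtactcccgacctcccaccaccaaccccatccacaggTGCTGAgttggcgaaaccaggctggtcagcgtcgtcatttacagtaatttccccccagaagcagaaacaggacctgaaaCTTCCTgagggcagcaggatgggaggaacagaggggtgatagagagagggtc
C1qc: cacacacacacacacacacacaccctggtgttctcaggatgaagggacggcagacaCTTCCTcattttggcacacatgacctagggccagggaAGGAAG
Cd163: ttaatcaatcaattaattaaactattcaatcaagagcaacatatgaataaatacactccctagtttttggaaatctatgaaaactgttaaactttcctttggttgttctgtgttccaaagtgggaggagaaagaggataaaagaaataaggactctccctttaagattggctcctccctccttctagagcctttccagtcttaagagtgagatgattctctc
Marco: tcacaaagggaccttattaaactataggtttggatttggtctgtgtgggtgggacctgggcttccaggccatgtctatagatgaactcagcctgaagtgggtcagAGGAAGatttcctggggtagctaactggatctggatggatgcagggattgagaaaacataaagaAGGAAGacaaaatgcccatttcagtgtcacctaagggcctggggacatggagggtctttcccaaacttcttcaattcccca
AGGAAG was found within 250 bases upstream of the start in 4 of the 7 member windows, once in C1qb, 2 times each in C1qc and Marco and 3 times in Mrc1, against 29.5% of all 32851 RefSeq windows of this length. The MAF half-site was found in C1qb and in 16.1% of all windows. TGANTCA, the AP-1 motif, occurred 2 times in Cd68 and in 6.75% of all windows, and TTGCNNAA, a C/EBP motif, occurred once in Cd68 and in 9.56% of all windows. No motif letters overlapped another motif's in these windows. The Cd163 and Pla2g2d windows held none of these letters, which says nothing about whether the factors act there.

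Total counts were 12800367 to 17550594 in the thymus libraries and 12922147 to 15637644 in the grafts. Levels are CPM, a gene's counts scaled to the effective library size, which is the total multiplied by a TMM factor. That factor was 0.747 in water replicate 2 and 0.794 in progressing replicate 2, against 1.03 to 1.16 in the other thymus libraries. The mitochondrial share of counts was 2.08% to 8.83% in the thymus, 0.521% and 1.02% in grafts given PBS, and 5.98% and 4.03% in those given ATO. Water replicate 2 stood apart for several members, and values without it are given where it decides them. Thymocyte markers summed to 1158 to 2142 CPM in the water libraries and 4937 CPM or more in every treated thymus library, and no defining thymic epithelium marker was at the floor of 3 counts throughout a thymus group. Of the thymocyte markers, Ptcra was at that floor in all 3 water libraries.

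**Figure D1:**
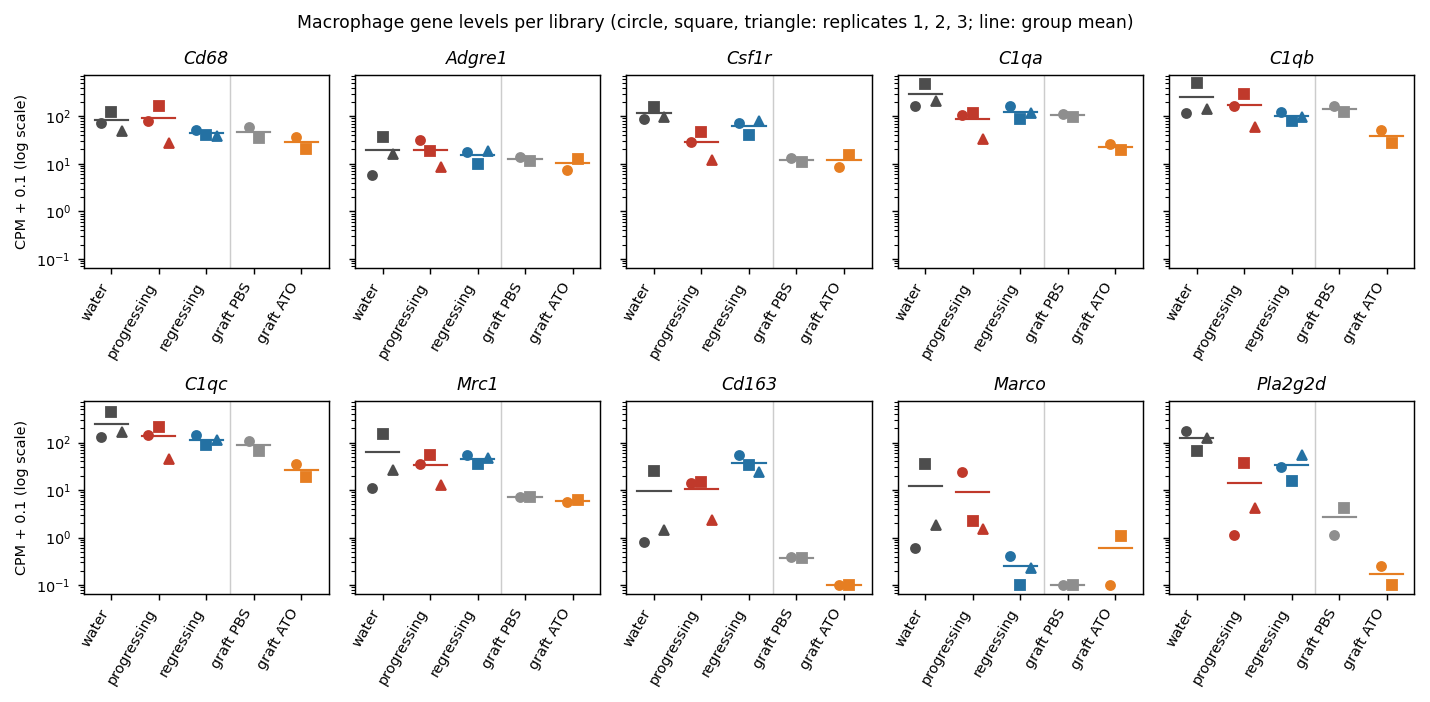
Level of each macrophage gene in each mouse library, as CPM + 0.1 on a log axis, with thymus groups left and graft groups right of the grey line. The C1q genes are lower in both ATO grafts than in both PBS grafts, and Marco is near the bottom of the axis in all regressing libraries, at 0 to 0.309 CPM.

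The C1q chains were among the most abundant of the members. C1qa, the A chain, had 166, 487 and 208 CPM in the water libraries, 106, 119 and 33.9 CPM in the progressing libraries and 165, 86.9 and 119 CPM in the regressing libraries. Every treated library was below every water library, by a narrow margin for regressing replicate 1 (165 against 166 CPM). The mean of C1qa was 287 ± 174 CPM (SD, n = 3) in water, 86.5 ± 46.0 in progressing and 124 ± 39.1 in regressing tumours, and the fitted log2 fold change against water was -1.73 (SE 0.54) in progressing and -1.22 (SE 0.53) in regressing tumours. Without water replicate 2 these values were -1.10 and -0.51. C1qb, the B chain, had 116, 493 and 142 CPM in water, 162, 289 and 59.8 CPM in progressing and 123, 79.3 and 97.7 CPM in regressing tumours. Its 3 thymus groups overlapped, and its spread was narrowest in the regressing group (100 ± 22 CPM, n = 3). In progressing against water the log2 fold change of C1qb was -0.56 (SE 0.62) and turned to 0.40 without water replicate 2. C1qc, the C chain, had 131, 434 and 165 CPM in water, 146, 212 and 44.6 CPM in progressing and 145, 88.4 and 112 CPM in regressing tumours. Its groups overlapped too, and its difference between outcomes, -0.22 (SE 0.57) for regressing minus progressing, changed sign when libraries were scaled by their totals without TMM and when progressing replicate 2 was left out (0.30). Across the 9 thymus libraries C1qb and C1qc had a Pearson's r of 0.955 on the log2(CPM + 1) scale, C1qa and C1qc of 0.920 and C1qa and C1qb of 0.782, a description over libraries that share their scaling.

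In the grafts all 3 chains were lower with ATO. C1qa had 113 and 94.3 CPM with PBS and 26.2 and 19.3 CPM with ATO, a log2 fold change of -2.19 (SE 0.24). C1qb had 166 and 122 CPM with PBS and 50.5 and 27.9 CPM with ATO (-1.88, SE 0.29), and C1qc had 108 and 66.6 CPM with PBS and 35.6 and 18.4 CPM with ATO (-1.69, SE 0.32). The groups did not overlap for any chain, beside 30.0% of all 15468 tested genes that were lower without overlap. When each graft library was left out in turn, the log2 fold change ran from -2.44 to -2.0 for C1qa, from -2.38 to -1.53 for C1qb and from -2.25 to -1.31 for C1qc.

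Because the chains share a library, their ratio does not depend on its scaling. Per kb of exon, C1qb over C1qa was 0.668, 0.968 and 0.653 in the water libraries and 0.714, 0.872 and 0.783 in the regressing libraries, but 1.46, 2.32 and 1.69 in the progressing libraries. The progressing ratios lay above all 6 others. Their mean was 1.82 ± 0.445 (SD, n = 3), against 0.763 ± 0.178 in water and 0.790 ± 0.0792 in regressing tumours. C1qc over C1qa was likewise higher in the progressing libraries, at 0.709 to 0.959 against 0.423 to 0.480 in water and 0.474 to 0.548 in regressing tumours. The C chain held a steadier share of the summed C1q level per kb, 20.1% ± 0.458 in water, 22.2% ± 1.17 in progressing and 22.1% ± 0.451 in regressing tumours (SD, n = 3 each), while the share of the A chain was 45.6% ± 4.07, 28.1% ± 4.14 and 43.6% ± 2.20. In the grafts C1qb over C1qa was 1.40 and 1.24 with PBS and 1.84 and 1.38 with ATO, so the graft groups overlapped. This pattern was noticed in the values and was not tested, and a ratio shows unequal levels, not which chain differs.

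**Figure D2:**
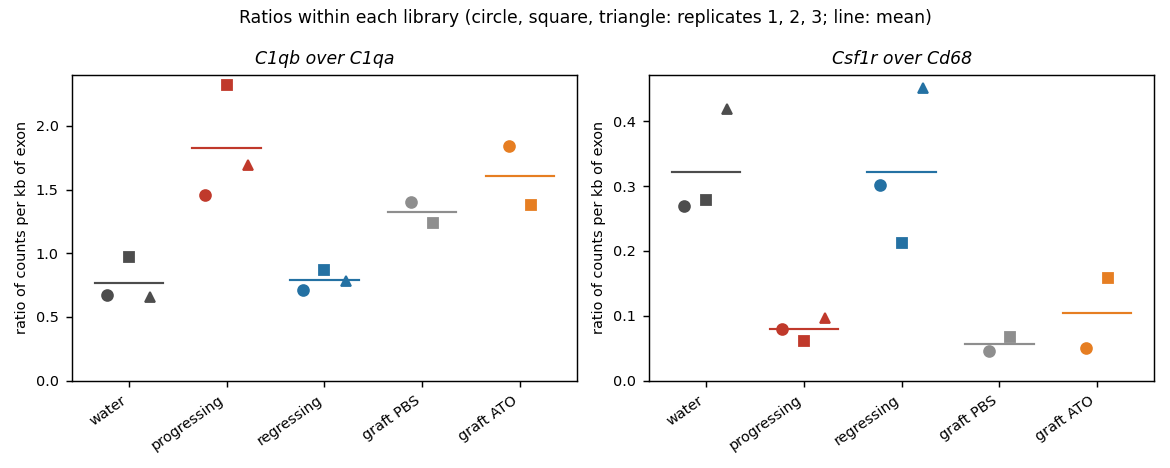
Ratios of counts per kb of exon within each library, for C1qb over C1qa (left) and Csf1r over Cd68 (right), on linear axes that start at 0. The 3 progressing libraries lie above all water and regressing libraries on the left, at 1.46 to 2.32, and below them on the right, at 0.0617 to 0.0963.

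Csf1r, the receptor through which CSF1 and IL34 keep macrophages alive, had 88.9, 159 and 94.6 CPM in water, 29.2, 46.8 and 11.8 CPM in progressing and 70.4, 39.5 and 80.6 CPM in regressing tumours. All treated libraries were below all water libraries, and the treated groups overlapped each other. The log2 fold change was -1.96 (SE 0.49) in progressing and -0.84 (SE 0.48) in regressing tumours against water, and the latter was -0.44 without water replicate 2. In the grafts Csf1r had 12.9 and 10.6 CPM with PBS and 8.48 and 15.1 CPM with ATO, and the groups overlapped, with a log2 fold change of 0.01 (SE 0.37). The span of Csf1r overlaps that of Hmgxb3, on the opposite strand, by 873 bases, and how many of these are exonic was not checked. Since strand use in the counting is not given in the sources used here, reads of Csf1r in that stretch are uncertain.

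Cd68, a glycoprotein of the lysosome and late endosome, had 72.0, 124 and 49.1 CPM in water, 80.2, 165 and 26.8 CPM in progressing and 50.7, 40.6 and 38.8 CPM in regressing tumours. The groups overlapped, and the regressing libraries were again the closest to each other. With PBS the grafts had 60.7 and 34.3 CPM of Cd68 and with ATO 36.7 and 20.7 CPM, which also overlap (log2 fold change -0.73, SE 0.33). Adgre1, an adhesion receptor known as the macrophage antigen F4/80, had 5.61, 36.0 and 15.9 CPM in water, 31.2, 18.1 and 8.38 CPM in progressing and 17.6, 10.0 and 18.4 CPM in regressing tumours. It overlapped in every comparison, its value for regressing minus water was -0.32 (SE 0.66), which became 0.62 without water replicate 2 and changed sign without TMM. In the grafts Adgre1 had 14 and 11.2 CPM with PBS and 7.30 and 12.8 CPM with ATO. The ratio of Csf1r to Cd68 per kb set the progressing libraries apart as the C1q ratio did, at 0.0793, 0.0617 and 0.0963 against 0.269, 0.279 and 0.419 in water and 0.302, 0.212 and 0.452 in regressing tumours. In the grafts this ratio was 0.0462 and 0.0673 with PBS and 0.0504 and 0.159 with ATO. The exonic lengths of these genes were the same in the thymus and graft tables, but the tables were fitted separately and no test was made across them.

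By group mean the scavenger receptors Mrc1, Cd163 and Marco followed 3 different orders. Those of Mrc1 and Marco changed when water replicate 2 was left out. Mrc1, the mannose receptor, had 11.1, 149 and 26.9 CPM in water, 34.8, 55.8 and 12.6 CPM in progressing and 53.7, 34.9 and 47.3 CPM in regressing tumours. A single library, water replicate 2, held most of the water signal: regressing minus water gave -0.46 (SE 0.80) with it and 1.35 without it, and progressing minus water -0.85 (SE 0.81) with it and 0.87 without it. In the grafts Mrc1 was low, at 7.06 and 6.98 CPM with PBS and 5.53 and 6.18 CPM with ATO, a separation without overlap but of small size (log2 fold change -0.26, SE 0.38), which was -0.07 without TMM. Cd163, the receptor for haptoglobin-haemoglobin complexes, had 0.709, 25.7 and 1.36 CPM in water, 14.2, 15.0 and 2.21 CPM in progressing and 54.6, 33.4 and 24.1 CPM in regressing tumours. The regressing libraries were above every progressing library (mean 37.4 ± 15.7 against 10.5 ± 7.18 CPM, SD, n = 3 each, log2 fold change 1.83, SE 1.14), and above water replicates 1 and 3 but not all above replicate 2. Leaving out water replicate 2 put Cd163 against water at 5.26 in regressing and 3.35 in progressing tumours, in place of 2.01 (SE 1.15) and 0.18 (SE 1.11). In the grafts Cd163 had 4 counts in each PBS library and 0 in each ATO library, too few for the filter on low counts, which puts it at least 1.34-fold lower against a floor of 3 counts per library.

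Marco, a class A scavenger receptor that binds bacteria and is typical of marginal zone and alveolar macrophages, was high in few libraries. It had 0.516, 34.9 and 1.73 CPM in water and 23.4, 2.11 and 1.40 CPM in progressing tumours, so that water replicate 2 and progressing replicate 1 were far above the rest. The regressing libraries had 5, 0 and 2 counts, or 0.309, 0 and 0.132 CPM, below every other thymus library. The log2 fold change of Marco was -6.28 (SE 1.88) in regressing against water and -2.73 without water replicate 2, and -5.82 (SE 1.85) in regressing against progressing and -3.47 without progressing replicate 1. Against water, the progressing tumours stood at -0.46 (SE 1.43), which became 3.05 without water replicate 2 and -2.82 without progressing replicate 1. In the grafts Marco had 0 counts in 3 libraries and 15 counts in ATO replicate 2. The 8 B cell markers, genes of a cell type that neighbours marginal zone macrophages in the spleen, summed to 1524, 3704 and 278 CPM in the water libraries, the highest value again in replicate 2, but to only 7.15 CPM in progressing replicate 1, where Marco was high as well. Their part in the level of Marco was not tested.

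Pla2g2d, a secreted phospholipase A2 of lymphoid tissue that is made by macrophages and dendritic cells, had 178, 65.1 and 122 CPM in water, 1.05, 37.7 and 4.12 CPM in progressing and 31.2, 15.2 and 55.5 CPM in regressing tumours. All treated libraries lay below all water libraries, and the treated groups overlapped. The log2 fold change against water was -3.10 (SE 1.05) in progressing tumours and -5.52 without progressing replicate 2, which held 446 of the counts against 17 and 56 in the others. In regressing tumours it was -1.84 (SE 0.99). Between outcomes it was 1.25 (SE 0.98), and 3.76 without progressing replicate 2. The PBS grafts had 14 and 62 counts of Pla2g2d and the ATO grafts 2 and 0, at least 12.4-fold lower against the floor. That bound is 4.87-fold without PBS replicate 2 and 19.9-fold without PBS replicate 1. Water replicate 2, the highest water library for the other 9 members, was the lowest for Pla2g2d. Dendritic cell markers, which mark the other known source, summed to 289 to 376 CPM in water, 63.7 to 126 CPM in progressing and 131 to 267 CPM in regressing tumours. These sums had the same order of groups, and none of the 12 was at the floor in any thymus group. The markers did not fall together in regressing against water. Their median log2 fold change there was -0.06, beside -0.11 over all tested genes, and it was -2.41 in progressing against water. The part of dendritic cells in the level of Pla2g2d was not tested.

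**Figure D3:**
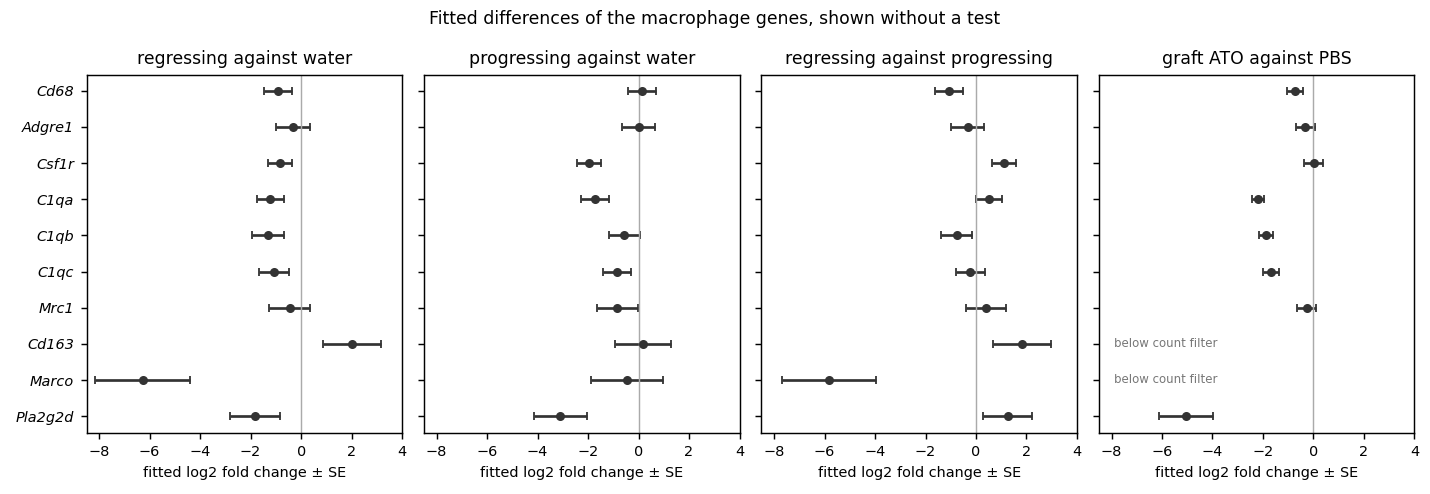
Fitted log2 fold change of each macrophage gene in the 4 comparisons, with bars of 1 standard error, shown without a test. Cd163 is the one member with a positive value in regressing against water (2.01), and in the grafts the C1q genes and Pla2g2d lie furthest below 0.

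Over the members as a group, 9 of 10 had a fitted value below 0 in regressing against water, 7 of 10 in progressing against water, 5 of 10 in regressing against progressing and 7 of the 8 that passed the filter on low counts in the grafts. Their medians were -1.0, -0.71, 0.09 and -1.21 on the log2 scale, beside medians over all tested genes of -0.11, -0.04, -0.07 and 0.04. Scaling by totals without TMM moved the log2 fold changes of all genes by a median of 0.19 in regressing against water, in regressing against progressing and in the grafts. In regressing against water 4 members (Csf1r, C1qa, Marco and Pla2g2d) were lower in all 3 treated libraries than in all water libraries, where 20.9% of all 18119 tested genes were. Csf1r, C1qa and Pla2g2d made 3 in progressing against water, beside 14.7% of all genes. Between the outcomes Cd163 was higher and Marco lower without overlap in regressing tumours, beside 21.4% and 20.6% of all genes. In the grafts 5 of the 8 members that passed the filter were lower without overlap (C1qa, C1qb, C1qc, Mrc1 and Pla2g2d), as was Cd163 below the filter, beside 30.0% of the tested genes. The members were chosen with these values in view, so nothing is read from the difference to all genes. The thymus comparisons against water share the same 3 water libraries.

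Compared per kb of exon, and thus between genes, C1qa had the highest mean level of the members in water (276 ± 168 CPM per kb, SD, n = 3) and in regressing tumours (119 ± 37.5), and C1qb in progressing tumours (156 ± 105) and in both graft groups (132 ± 28.1 with PBS and 36.0 ± 14.7 with ATO, n = 2 each). Cd68 had 65.0 ± 30.5, 72.2 ± 55.6 and 34.5 ± 5.13 CPM per kb in the 3 thymus groups. Csf1r had 19.8 ± 6.71, 5.07 ± 3.03 and 11 ± 3.70 CPM per kb, and Adgre1 5.91 ± 4.77, 5.94 ± 3.54 and 4.73 ± 1.43. Of the scavenger receptors, Mrc1 was at 9.76 ± 11.8, 5.4 ± 3.39 and 7.11 ± 1.5 CPM per kb and Cd163 at 1.70 ± 2.61, 1.92 ± 1.31 and 6.84 ± 2.87 CPM per kb. When the thymus groups were ordered by mean level for each member, some neighbouring groups did not overlap. These were water and regressing for Csf1r, C1qa and Pla2g2d, regressing and progressing for Cd163, and progressing and regressing for Marco. The order follows each gene's own means, and the share of such steps over all genes was not computed, so nothing is read from their number.

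Genes with the most similar profile were sought among 16488 named genes that averaged 1 CPM or more, by Pearson's r over the 9 thymus libraries. Nearest to C1qa were Mpeg1 (r = 0.973), which encodes a pore-forming protein of macrophages, Clec4n (0.968), which encodes a C-type lectin of myeloid cells, Nt5c3 (0.964) and Ndfip1 (0.959). Csf1r was closest to Dse (0.991), Tmem26 (0.985), Casp1 (0.975) and again Clec4n (0.973). The nearest genes to Pla2g2d were Dnaaf3 (0.984), the class II gene H2-Eb2 (0.983), Tgfbr2 (0.974) and Relb (0.973). Cd163 and Marco had no macrophage gene among their nearest 4, which were Pex5 (0.965), Lin37 (0.944), Caml (0.937) and Ubqln1 (0.930) for Cd163 and Mrpl41 (0.975), Isg20l2 (0.972), Gm9761 (0.961) and Armc3 (0.959) for Marco. With 9 libraries and so many genes high values of r are frequent, and these are descriptions. Among the members themselves, Pla2g2d had r = 0.814 with Csf1r, -0.210 with Adgre1 and -0.300 with Marco, and Cd163 had r = 0.764 with Mrc1 and 0.190 with C1qa.

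The wider macrophage programme was read from 5 lists of 110 other genes, covering the CSF1 axis and lineage factors, core macrophage and monocyte genes, resident and scavenging macrophage genes, complement outside C1q and structural relatives of the members. These were tested across all genes with edgeR's quasi-likelihood test and Benjamini-Hochberg adjustment, at an adjusted p under 0.05. The lists hold complement genes and structural relatives besides macrophage genes, so the pooled counts are not of macrophage genes alone. In regressing against water 2 of the 104 tested list genes rose and 9 fell (10.6%). Of all tested genes 7.70% were called, 3.13% higher and 4.57% lower. Structural relatives made 1 of the rises and 3 of the falls, of 20 tested. Over all 104 the median log2 fold change was -0.82. F13a1, the A subunit of coagulation factor XIII, which is made by some resident macrophages and monocytes, had 4.19, 9.01 and 2.41 CPM in water and 92.4, 107 and 63.9 CPM in regressing tumours. Its rise on the log2 scale was 4.08 (SE 0.57, edgeR adjusted p = 0.00681), and this call held in every alternative fit that was run. Ly75, a receptor for uptake of dying cells in dendritic cells and thymic epithelium and a relative of Mrc1, rose by 1.42 (SE 0.27, edgeR adjusted p = 0.0169), a call lost without regressing replicate 1 or 2. Cd163l1, a relative of Cd163 that in mice marks gamma-delta T cells, fell by 6.34 (SE 1.63, edgeR adjusted p = 0.0428), and Arg1, arginase of alternatively activated macrophages, fell by 3.63 (SE 0.96, edgeR adjusted p = 0.0471). The calls of both were lost without any 1 of the regressing libraries or without water replicate 2 or 3. Ly6c2, a surface protein of inflammatory monocytes and of some T cells, fell by 2.90 (SE 0.66, edgeR adjusted p = 0.0302), with its call lost in the same 5 fits. Serping1, the inhibitor of the C1 proteases, fell by 2.19 (SE 0.54, edgeR adjusted p = 0.0375), lost without regressing replicate 1 or 2 or water replicate 1 or 3. C1qbp, whose mitochondrial product also binds C1q, fell by 2.90 (SE 0.58), and C1qtnf6, a C1q-like secreted protein, by 3.23 (SE 0.67), with edgeR adjusted p = 0.0208 and 0.0226, both lost without regressing replicate 1 or 2 and the latter also without water replicate 2. The other 3 falls were Csf2rb, a subunit of the GM-CSF receptor, Msr1, a class A scavenger receptor, and the chemokine receptor gene Ccr2, whose libraries overlapped between the groups. Single libraries moved several of these values, to -2.62 for Arg1 without water replicate 3, to -1.80 for C1qbp, -2.57 for C1qtnf6 and 4.81 for F13a1 without water replicate 2, and to -2.84 for Serping1 without regressing replicate 3. Without TMM, Arg1 and Serping1 passed no longer (edgeR adjusted p = 0.0543 and 0.0570). The list genes called numbered 6 without TMM, 1 without regressing replicate 1 or without replicate 2, 5 without water replicate 2 and 7 without water replicate 3.

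In progressing against water 2 list genes rose and 17 fell of 104 (18.3%), beside 11.9% of all tested genes, 4.77% higher and 7.13% lower. Structural relatives made 1 of the rises and 2 of the falls, of 20 tested. The falls were most frequent in the CSF1 axis and lineage factors, where 8 of 15 fell, with a list median of -1.81. These were the growth factors Csf1 and Csf2, the receptor subunit Csf2rb, and the transcription factors Maf, Irf8, Irf5, Nr1h3 and Zeb2. Csf1 had 19.7, 31.6 and 21.6 CPM in water, 5.55, 10.8 and 8.31 CPM in progressing and 19.2, 15.0 and 32.4 CPM in regressing tumours. Its log2 fold change was -1.56 (SE 0.45, edgeR adjusted p = 0.0458), and it failed the threshold whichever of the 6 libraries was left out. Csf2 was at the floor in all progressing libraries, at least 32.7-fold lower, with 254, 5 and 78 counts in water, and its call was lost without any 1 of the progressing libraries or water replicate 1, without which the bound is 11.8-fold. Maf fell by 3.48 (SE 0.60, edgeR adjusted p = 0.00716) and kept its call in all alternatives. Il34, the second ligand of the receptor, had 4.97, 5.80 and 6.24 CPM in water and 0.863, 3.38 and 2.94 CPM in progressing tumours, without overlap but short of the threshold (log2 fold change -1.24, SE 0.57, edgeR adjusted p = 0.182). Spi1, which encodes PU.1, the lineage factor of macrophages, stood at -1.81 (SE 0.70, edgeR adjusted p = 0.117), and at -0.85 without water replicate 2 and -2.64 without progressing replicate 2. It passed the threshold in DESeq2 and in edgeR without the filter on low counts.

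Among core macrophage and monocyte genes 5 of 25 fell in progressing against water, namely Ly6c2, Ccr2, Cx3cr1, Sirpa and Cybb. Ly6c2 had 78.2, 527 and 523 CPM in water and 0.925, 3.04 and 3.46 CPM in progressing tumours and fell by 7.25 (SE 0.82, edgeR adjusted p = 0.00150). Ccr2, the chemokine receptor of inflammatory monocytes and some T cells, had 557, 12.8 and 664 CPM in water and 3.27, 3.13 and 6.84 CPM in progressing tumours (log2 fold change -6.54, SE 1.27, edgeR adjusted p = 0.0113). Mertk, a receptor for the uptake of dying cells, was lower without overlap at -1.01 (SE 0.45, edgeR adjusted p = 0.167), short of the threshold. Hpgd, which breaks down prostaglandins, fell by 3.45 (SE 0.63, edgeR adjusted p = 0.00905), and Itgax, the CD11c integrin of dendritic cells and some macrophages, by 3.09 (SE 0.64, edgeR adjusted p = 0.0146), the latter call lost without progressing replicate 3. F13a1 rose here too, by 3.54 (SE 0.56, edgeR adjusted p = 0.00515), with 30.3, 84.8 and 66.3 CPM in the progressing libraries, and held in every alternative. Pla2r1, a receptor for secreted phospholipases and a relative of Mrc1, rose by 3.52 (SE 0.84, edgeR adjusted p = 0.0239), a call lost without progressing replicate 1 or 3 or water replicate 1. The remaining falls were Adgre4 and Flt3, relatives of Adgre1 and Csf1r. The value of F13a1 was 4.19 without water replicate 2, that of Maf -2.84 without water replicate 3, that of Itgax -3.92 without progressing replicate 2 and that of Pla2r1 2.61 without progressing replicate 1. Without progressing replicate 3 the list genes called numbered 9, and without water replicate 1 they numbered 11.

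The outcomes were also tested directly against each other. Of 104 list genes 9 were higher and 6 lower in regressing than in progressing tumours (14.4%), beside 12.6% of all tested genes, 6.45% higher and 6.18% lower. Without TMM 16 were higher and 4 lower. Without regressing replicate 1, 2 were called, both higher, against 4 without regressing replicate 2, 4 without regressing replicate 3, 5 without progressing replicate 3 and 9 without progressing replicate 1. Structural relatives made 3 of the 9 that were higher and 2 of the 6 that were lower, of 20 tested. Hpgd, at 101, 78.7 and 70.4 CPM in regressing and 2.40, 3.30 and 0.809 CPM in progressing tumours, was higher by 5.26 (SE 0.68, edgeR adjusted p = 0.00663). Ly6c2 was higher by 4.36 (SE 0.73, edgeR adjusted p = 0.0110), and both calls held in every alternative. Maf was higher by 2.93 (SE 0.58, edgeR adjusted p = 0.0178), a call lost without progressing replicate 3 or regressing replicate 1. Il34 was higher by 2.19 (SE 0.59, edgeR adjusted p = 0.0377), and Csf1 stood at 1.43 (SE 0.45, edgeR adjusted p = 0.0576). Cx3cr1, the fractalkine receptor of resident macrophages and monocytes, Adgre4 and Flt3 were higher by 3.10, 2.73 and 2.30 (edgeR adjusted p = 0.0329, 0.0343 and 0.0265). Irf5 and Ly75 completed the 9 that were higher. Spp1, osteopontin, made by some tumour macrophages and by other cells, had 144, 74.6 and 57.2 CPM in progressing and 3.71, 2.47 and 2.77 CPM in regressing tumours and was lower by 4.94 (SE 0.83, edgeR adjusted p = 0.0110), with the call lost without regressing replicate 1. Arg1 was lower by 3.95 (SE 0.98, edgeR adjusted p = 0.0305), and Lgals3, galectin-3, by 1.96 (SE 0.52, edgeR adjusted p = 0.0360). Pla2r1 and C1qtnf6 were lower by 2.90 and 2.30 (edgeR adjusted p = 0.0425 and 0.0443), and Cd55, which shields cells from complement, was the sixth that was lower, with overlapping groups. The calls of Il34, Cx3cr1, Adgre4, Flt3, Arg1, Lgals3, Pla2r1 and C1qtnf6 were each lost without any 1 of the regressing libraries and without at least 1 progressing library. Without progressing replicate 2 the values were 3.44 for Adgre4, -3.33 for Arg1 and -1.34 for Lgals3, and without progressing replicate 1 they were 3.97 for Cx3cr1 and -1.98 for Pla2r1. Without TMM C1qtnf6 and Pla2r1 lost their calls and Csf1 gained one (edgeR adjusted p = 0.0506, 0.0616 and 0.0286).

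In the ATO grafts 4 list genes rose and 14 fell of 91 tested (19.8%), beside 13.9% of all tested genes, 7.37% higher and 6.57% lower. Without TMM the split was 8 higher and 7 lower, and over all genes 1800 higher and 520 lower in place of 1140 and 1017, although none of the 18 called list genes changed sign and 11 kept their call. Structural relatives made 2 of the 4 rises and 1 of the 14 falls, of 16 tested. The falls were most frequent among core macrophage and monocyte genes, where 9 of 25 fell, with a list median of -0.76. They were Aif1, Tyrobp, Lyz2, Ctsb, Ctsd, Lgmn, Fcgr3, Ms4a7 and Clec7a, of which Ctsb, Ctsd and Lgmn encode lysosomal proteases found in many cell types. Clec7a, the beta-glucan receptor, fell by 2.08 (SE 0.38, edgeR adjusted p = 0.0103). Aif1, a macrophage actin-binding protein, had 20.7 and 15.4 CPM with PBS and 6.20 and 2.76 CPM with ATO and fell by 2.01 (SE 0.43, edgeR adjusted p = 0.0160), a call lost without PBS replicate 1. Ctsd had 538 and 425 CPM with PBS and 212 and 139 CPM with ATO (log2 fold change -1.45, SE 0.24, edgeR adjusted p = 0.00790), and Ms4a7 fell by 1.53 (SE 0.31, edgeR adjusted p = 0.0136), lost without PBS replicate 1. Apoe, the lipid carrier, fell by 1.44 (SE 0.26, edgeR adjusted p = 0.00979), Trem2, a lipid-sensing receptor, by 1.49 (SE 0.45, edgeR adjusted p = 0.0498) and Spi1 by 1.34 (SE 0.38, edgeR adjusted p = 0.0376). The call of Spi1 was lost without PBS replicate 1, and that of Trem2 without PBS replicate 1 or ATO replicate 2, and both were lost without TMM (edgeR adjusted p = 0.0606 and 0.0742). Mertk and Il34 stood at -0.17 and -0.25 (edgeR adjusted p = 0.845 and 0.773). The 4 rises were C3, the central component of complement, by 1.74 (SE 0.35, edgeR adjusted p = 0.0132), the C1 protease gene C1s1 by 1.36 (SE 0.39, edgeR adjusted p = 0.0410), Pdgfra, a fibroblast receptor related to Csf1r, by 2.18 (SE 0.45, edgeR adjusted p = 0.0144) and Pla2r1 by 1.70 (SE 0.51, edgeR adjusted p = 0.0480). Without ATO replicate 2 the value of C3 was 0.96. Without ATO replicate 1, Aif1 stood at -2.71 and Trem2 at -2.12, and without PBS replicate 1 Trem2 stood at -0.83. The other 2 falls were Cd209f, a C-type lectin, and Lamp1, a lysosomal relative of Cd68. Cd209f was at the floor with ATO and had a mean of only 1.12 CPM with PBS, at least 5.35-fold lower against the floor. Of the rises, the call was lost without ATO replicate 2 or PBS replicate 2 for C1s1, without PBS replicate 2 for Pdgfra and without any 1 of the 4 libraries for Pla2r1. Without PBS replicate 1 the list genes called numbered 7, and without ATO replicate 1 they numbered 33.

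**Figure D4:**
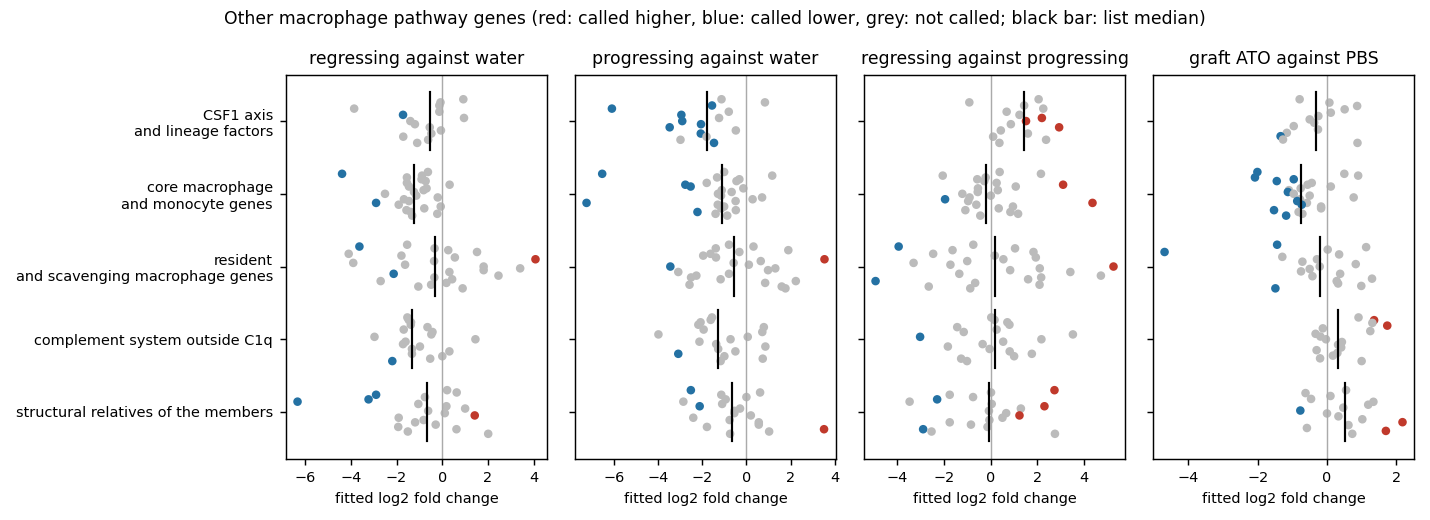
Fitted log2 fold change of the other macrophage pathway genes that passed the filter, by list and comparison, with calls of edgeR's test in red (higher) and blue (lower) and the list median as a black bar. The CSF1 axis list in progressing against water has 8 of 15 genes called lower, and the core list in the grafts 9 of 25.

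Marker genes of other cell types were tested in the same fits, and their counts are read beside the shares of all genes called, 7.70%, 11.9%, 12.6% and 13.9% in the 4 comparisons. Counts of 1 in lists of 5 to 9 markers are near those shares. In regressing against water 7 of 12 thymocyte and 2 of 9 thymic epithelium markers rose, 1 of 8 B cell and 3 of 7 fibroblast markers fell and 3 of 9 adipocyte markers rose, the last with summed levels of 166, 604 and 5026 CPM in the regressing libraries and 44.8 to 153 CPM in water. In progressing against water 5 of 12 thymocyte markers rose, while 5 of 12 dendritic cell, 7 of 8 B cell and 5 of 9 thymic epithelium markers fell. Between the outcomes 6 of 12 dendritic cell, 3 of 8 B cell and 5 of 9 thymic epithelium markers were higher and 3 of 7 fibroblast markers lower in regressing tumours. Neutrophil markers were scarce, with summed levels of 4.34 to 83.0 CPM in the thymus and 3.89 to 27.2 CPM in the grafts, where 1 of the 4 that passed the filter rose. Of 9 endothelial markers 1 fell in progressing against water, as did 1 of 5 mast cell and eosinophil markers, and each of these lists, like the adipocyte list, had 1 marker higher in regressing than in progressing tumours. In the grafts 3 of 7 fibroblast and 2 of 8 skeletal muscle markers rose, with summed fibroblast levels of 473 and 216 CPM with PBS and 606 and 1626 CPM with ATO, and summed muscle levels of 251 and 34.5 CPM with PBS and 352 and 369 CPM with ATO. Of the thymocyte markers in the grafts 1 rose and 3 fell, of 8 endothelial markers 1 rose and 1 fell, 1 of 6 adipocyte and 1 of 5 dendritic cell markers fell, and of 9 mast cell and eosinophil markers 5 were at the floor in both graft groups. The part of these cells in the levels of the macrophage genes was not tested.

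In U937 cells the human counterparts of the members were read from 1 library a condition, which allows no test of the treatment, and the 95% intervals below cover counting error only. MARCO had 39 counts with PBS and 732 with ATO, or 2.18 and 44.5 CPM, a ratio of 20.4 (14.8 to 28.9). CSF1R had 51 and 273 counts, a ratio of 5.81 (4.30 to 8.0), and ADGRE1 106 and 138 counts, a ratio of 1.41 (1.09 to 1.84). CD68 had 25 and 37 counts, a ratio of 1.61 whose interval includes no difference (0.942 to 2.79). CD68, ADGRE1, C1QA, C1QC, MRC1 and CD163 each overlap another gene on their own strand and CSF1R and MARCO one on the other strand, so reads there are uncertain. C1QA, C1QB and C1QC had 0 counts in both libraries, where 3 counts would be 0.168 CPM with PBS, and MRC1, CD163 and PLA2G2D had 0 counts with PBS and 4, 1 and 15 with ATO. Of the lineage genes, SPI1 had 2699 counts with PBS and 1250 with ATO, a ratio of 0.503 (0.470 to 0.538), CSF1 0 and 123 counts and MERTK 238 and 337 counts.

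**Figure D5:**
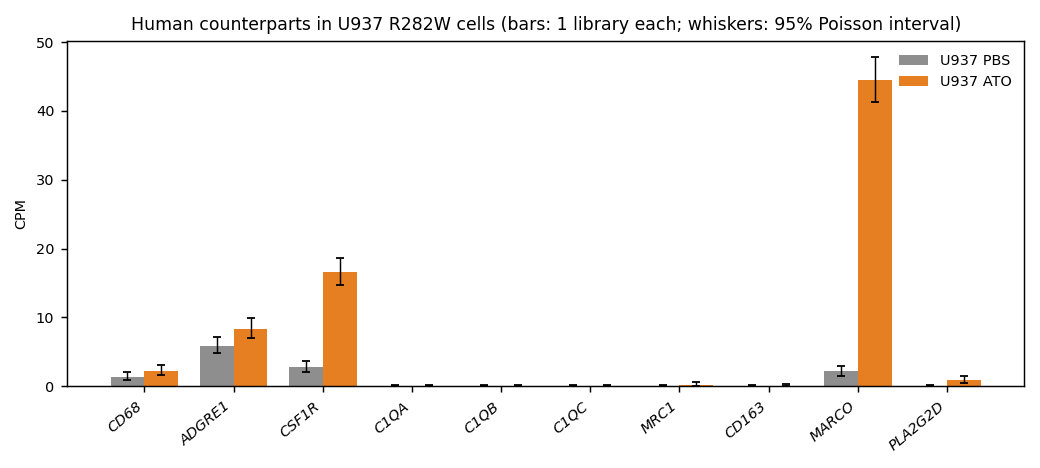
CPM of the human counterparts of the members in U937 cells with PBS (grey) and ATO (orange), 1 library each, with 95% Poisson intervals for counting error. MARCO has 2.18 CPM with PBS and 44.5 CPM with ATO, and the C1Q genes are at 0 in both.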

How the data were processed

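Read counts per gene were measured in 15 RNA sequencing libraries. The authors deposited raw, unnormalized counts in 1 table for each system, and per the submitters' processing notes reads were checked with FastQC 0.10.1, trimmed with cutadapt 1.9.1 and aligned with HISAT2 2.0.1. The counting program and its use of strand are not given in the sources used here. The deposited tables also hold FPKM values made by the authors, which were not used. Per the labels' protocols total RNA was isolated with TRIzol and made into libraries with a SMARTer kit. The same text holds a cell culture step that cannot refer to tissue.

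The counts of the mouse libraries entered edgeR 4.0.16 under R 4.3.3 (filterByExpr, TMM, quasi-likelihood test, Benjamini-Hochberg adjustment, threshold 0.05), with the 9 thymus libraries in 1 fit of 3 groups and the 4 grafts in another. Standard errors were derived from the fold change and the F statistic. A group was at the floor where none of its libraries had over 3 counts. Floors and intervals cover counting error only, because PCR reads lacking molecular identifiers are not independent molecules. The fit was also run on counts simulated from its own estimated means and dispersions. Such a run cannot show how the fit handles a library that stands apart. The members, the 15 gene lists (205 genes, 204 of them found in the graft table), the tests and the rule for naming genes were chosen with earlier results of these data known. The rule names, among the 5 macrophage lists, the 6 largest rises and 6 largest falls of a comparison that average 1 CPM or more and do not overlap, besides Csf1, Il34, Spi1, Mertk and Vsig4, and other genes are named to complete counts. A further gene under this rule is not reported here. Vsig4, a complement receptor of resident macrophages, had a mean of 1.66 CPM or less in every group. Lists of other cell types were dendritic, neutrophil, mast cell and eosinophil, thymocyte, B cell, adipocyte, endothelial, fibroblast, thymic epithelium and skeletal muscle markers. Coordinates are those of the thymus table, GRCm38. The graft table uses other coordinates, and none is given from it. DESeq2 1.42.0, other scalings, no filter, a replicate block and fits without single libraries were alternatives.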

Additional observations from a re-analysis of the deposited data

Results flagged for a closer look

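The 5 lists, which hold complement genes and structural relatives of the members besides macrophage genes, had 91 genes tested in both systems. Of these, 8 in regressing and 8 in progressing tumours (8.79% each) differed from water in the direction opposite to that of ATO in the grafts. Neither difference had overlap between the groups. Over all 14674 genes tested in both tables the shares were 5.35% and 5.53%. None of these list genes passed edgeR's test in both systems. The difference between the systems was not tested, since their tables were fitted separately. Values are log2 ratios of mean CPM, against water in the thymus and ATO against PBS in the grafts. Among complement genes, C1s1 was at -1.47 in regressing and -1.62 in progressing tumours and at 1.36 in the grafts. C2 was at -1.37, -2.08 and 1.31, and C4b at -1.69, -1.94 and 1.25, in the same order. C3 was at -2.18 in progressing tumours and 1.74 in the grafts. Of the CSF1 axis, Csf1 was at -1.56 in progressing tumours and 0.87 in the grafts, and the lineage factor Zeb2 at -1.10 in regressing and -1.47 in progressing tumours and 0.88 in the grafts. Ccr2 was at -6.54 in progressing tumours and 0.50 in the grafts, and Arg1 at -3.63 in regressing tumours and 1.13 in the grafts. Colec12, a scavenger receptor, was at -1.06 in regressing and -1.10 in progressing tumours and 1.34 in the grafts, and Pdgfrb, a relative of Csf1r, at -1.20 in regressing tumours and 0.62 in the grafts. Lpl, which encodes lipoprotein lipase, went the other way, at 3.41 in regressing tumours and -0.75 in the grafts. C3 and C1s1 passed edgeR's test in the grafts, Arg1 in regressing and Ccr2, Csf1 and Zeb2 in progressing tumours. Without ATO replicate 2 the fitted value of C3 in the grafts was 0.96. Summed fibroblast marker levels in the same libraries were 325 to 930 CPM in water, 775 to 1320 CPM in progressing and 129 to 430 CPM in regressing tumours, and 216 to 473 CPM with PBS and 606 to 1626 CPM with ATO in the grafts. The part of fibroblasts in these values was not tested.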

How the results depend on the processing

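Counts of called genes varied with the settings, and so did their split by direction. In regressing against water 568 genes were higher and 828 lower. Without regressing replicate 1 the split was 78 and 8, and without water replicate 1 it was 387 and 685. The cause was not tested unless named. In regressing against water 1396 genes and 11 genes of the 5 lists were called. There DESeq2 gave 3144 and 25, no filter on low counts 2689 and 32, and totals without TMM (added after seeing the data) 6 list genes. Leaving out 1 library gave 60 to 1190 genes and 1 to 8 list genes. In progressing against water, with 2157 and 19, DESeq2 gave 3859 and 35, no filter 3594 and 36, and only the compared groups 882 and 11, with 907 to 2557 and 9 to 22 on leaving out 1 library. In regressing against progressing, with 2289 and 15, DESeq2 gave 4100 and 35 and no filter 3621 and 42, with 177 to 2000 and 2 to 17 on leaving out 1 library. In the grafts, with 2157 and 18, no filter gave 3274 genes, and leaving out 1 library 685 to 2420 genes and 7 to 33 list genes. A lone library left in a graft group is assumed to vary like the others. A fit without the filter tests more genes, and one without a library rests on fewer samples.

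Same-numbered thymus libraries had correlations of deviations from -0.122 to 0.133, and differently numbered ones from -0.157 to 0.174. With 3 libraries a group, these values cannot show whether a number stands for a pair or a batch. With a replicate block 7 list genes were called in regressing against water, 1405 genes in progressing against water, 9 list genes in regressing against progressing and 1350 genes in the grafts. Among the named genes, this block removed the calls of Arg1 and Cd163l1 in regressing and Csf1 in progressing against water. It also removed those of Adgre4, C1qtnf6, Il34, Lgals3 and Pla2r1 between the outcomes and of C1s1, Pla2r1 and Spi1 in the grafts. In the grafts Pla2r1 was also not called by DESeq2, nor Trem2 with RLE size factors. Same-numbered grafts had a correlation of -0.130 and differently numbered ones of 0.130. With 2 libraries a group these are bound to be equal in size and opposite in sign, so they cannot show a pairing. A crossed replicate block, added after seeing the data, gave 3298 genes.

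Of 688 refits of named list genes 563 kept their side of the threshold, 120 lost a call and 5 gained one, and none of the called genes changed sign. Of 326 refits of member fold changes 21 moved by more than the spread between libraries, 10 of them on leaving out water replicate 2. Marco is limited by depth in most libraries. Cd163 is so limited, at 0 to 30 counts, in the grafts, water replicates 1 and 3 and progressing replicate 3. The regressing libraries held 365 to 883 counts of Cd163.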
